A study of Mus musculus with 42 samples.

Results

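The nuclear respiratory chain genes encode those subunits of the mitochondrial respiratory complexes and of ATP synthase that are specified by nuclear DNA. They were chosen by name alone: symbols beginning with Nduf (followed by a, b, c, s or v and a number), Sdha to Sdhd, Uqcr, Cox4 to Cox8 or Atp5, without symbols ending in -ps. The rule found 83 genes, of which 82 stood among the 16345 genes of the EpiLC table and 82 among the 16753 genes of the EB table, with 81 in both. Cox7b2 was only in the EpiLC table and Cox4i2 only in the EB table. Counted by the start of the symbol, complex I had 37 members, complex II 4, complex III 8, complex IV 16 (15 in each table) and ATP synthase 18. The role of each protein was not checked, so Atp5s and Atp5sl are counted under ATP synthase by name only. All 82 members of each table passed the filter of a mean of at least 1 normalised unit in each of the 6 tested comparisons. Atp5l-ps1, by its name a pseudogene, was kept because its symbol ends in -ps1. Ndufa4 and Ndufa4l2 are counted under complex I by name, although the Ndufa4 protein is assigned biochemically to complex IV. Cox7a2l, a factor that joins complexes III and IV into supercomplexes, is counted under complex IV by name.

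All 32 polyA libraries came from mouse embryonic stem cells (ESCs), with 1 library per condition and time. The DGCR8 knockout (KO) line was sampled in 2i/LIF (0 h) and after 6, 24, 48, 72 and 96 h in the medium that turns ESCs into epiblast-like cells (EpiLCs). DGCR8 binds primary microRNA transcripts so that a nuclease can cut them. KH2-ISY1 is a separate ESC line that makes Flag-ISY1, an extra copy of a Prp19 complex splicing factor, when given doxycycline (Dox). It was sampled with Dox after 24, 48, 72 and 96 h of EpiLC induction and without Dox at 0, 6, 12, 18, 24, 30, 36, 48, 72 and 96 h. EpiLCs of 24 or 48 h, kept with or without Dox, were also replated into 2i/LIF and are called returned cells. Their labels give no Dox after replating and no length of the return. In the EB table the same line was sampled in serum/LIF with Dox, and without Dox in serum/LIF (day 0) and at days 1, 2, 4, 8, 10 and 13 of embryoid body (EB) formation. No line lacking the transgene was given Dox, so Dox itself and ISY1 cannot be told apart. The labels name the KO line as a line of its own, so line and DGCR8 loss cannot be told apart either.

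Total reads ranged from 5.80 to 56.02 M reads over the 24 libraries whose whole reads could be recovered from the deposited values. The values are gene read counts divided by 1 size factor per library, here called normalised units, and 1 read was worth 0.0952 to 0.935 units. Isy1, which checks the transgene, had 3038, 912, 1109 and 708 units with Dox at 24, 48, 72 and 96 h, against 423, 397, 558 and 418 units without Dox. Dgcr8 had 36.8 to 44.5 units in the 6 KO libraries, against 75.2 to 231 units in the 6 libraries without Dox at the same hours. All 12 naive pluripotency genes on the list used here fell over the EpiLC course and 7 of 8 formative epiblast genes rose. These are bulk samples, so fewer cells of a type and less RNA per cell cannot be told apart.

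The respiratory chain passes electrons from NADH through complex I, or from succinate through complex II, to complex III, cytochrome c and complex IV, which reduces oxygen. The protons pumped on the way drive ATP synthase. Most subunits are nuclear and imported, while a few core subunits of complexes I, III and IV and of ATP synthase are encoded by mitochondrial DNA. Several complex IV subunits exist in paired forms, a common one and one favoured in muscle, testis or low oxygen. Naive ESCs respire, and primed pluripotent cells are known for a larger reliance on glycolysis.

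Promoters were examined because the transcription factors NRF1, GABP (an ETS factor) and YY1 are known regulators of respiratory genes. All 83 members matched RefSeq (80 by symbol and 3 by an older symbol), and 68 had a promoter of 250 bases before to 50 bases after the start in the RefSeq table for GRCm38.p6. The letters GCGCANGCG of the NRF1 motif stood in 19 of the 68 (27.9%), against 13.1% of the 10735 promoters of genes in the EpiLC table and 6.47% of all 27025 promoters. The YY1 letters AAGATGGCG stood in 7 (10.3%), against 3% and 1.49%. The ETS letters CCGGAAGT stood in 5 (7.35%), against 7.73% and 4%. CCAAT stood in 31 (45.6%), against 39.1% and 37.9%. Both strands were searched, and none of the 4 motifs contains another. The NRF1 and YY1 letters were shortened by 1 base after counts with the longer letters, which stand in fewer promoters of the members and of all genes, had been seen. The median GC content was 57.3% in the members' promoters, against 60.7% and 52.7%. By complex, the NRF1 letters were found in 8 of 32 promoters of complex I, 2 of 3 of complex II, 2 of 5 of complex III, 1 of 12 of complex IV and 6 of 16 of ATP synthase. The following promoters are shown because their genes carry the results below. Ndufb4, Cox6a1 and Uqcrc1 hold the NRF1 letters more than once, counting matches that overlap on opposite strands, whereas Cox5a and Cox7b2 hold none of them in this window. Bases are lower case, 5′ to 3′ on the gene's strand, and capitals mark the NRF1 letters on either strand.
Ndufb4 promoter, chr16:37654319-37654618, minus strand: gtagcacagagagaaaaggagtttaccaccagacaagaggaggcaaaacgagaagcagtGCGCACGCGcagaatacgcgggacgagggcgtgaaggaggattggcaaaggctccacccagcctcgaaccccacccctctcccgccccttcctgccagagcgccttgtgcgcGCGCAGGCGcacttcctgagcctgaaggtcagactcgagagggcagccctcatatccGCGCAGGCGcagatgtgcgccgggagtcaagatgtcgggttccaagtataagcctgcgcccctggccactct
Cox6a1 promoter, chr5:115348909-115349208, minus strand: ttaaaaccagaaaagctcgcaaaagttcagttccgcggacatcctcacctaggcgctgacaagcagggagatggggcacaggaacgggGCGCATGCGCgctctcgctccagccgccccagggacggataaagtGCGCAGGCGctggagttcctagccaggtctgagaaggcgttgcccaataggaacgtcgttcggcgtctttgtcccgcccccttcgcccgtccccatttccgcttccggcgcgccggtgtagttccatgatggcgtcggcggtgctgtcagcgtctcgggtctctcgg
Uqcrc1 promoter, chr9:108936398-108936697, plus strand: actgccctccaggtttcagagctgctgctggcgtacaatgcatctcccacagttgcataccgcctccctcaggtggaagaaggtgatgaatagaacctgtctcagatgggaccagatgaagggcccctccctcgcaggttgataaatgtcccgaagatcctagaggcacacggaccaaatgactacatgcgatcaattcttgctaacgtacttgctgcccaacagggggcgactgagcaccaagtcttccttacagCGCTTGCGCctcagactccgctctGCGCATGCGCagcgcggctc
Cox5a promoter, chr9:57520982-57521281, plus strand: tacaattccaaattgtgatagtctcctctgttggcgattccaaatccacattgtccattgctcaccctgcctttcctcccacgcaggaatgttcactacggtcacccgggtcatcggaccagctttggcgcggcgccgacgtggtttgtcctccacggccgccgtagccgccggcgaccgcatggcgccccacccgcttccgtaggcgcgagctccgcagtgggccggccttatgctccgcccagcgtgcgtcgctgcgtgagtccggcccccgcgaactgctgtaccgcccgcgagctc
Cox7b2 promoter, chr5:71548156-71548455, minus strand: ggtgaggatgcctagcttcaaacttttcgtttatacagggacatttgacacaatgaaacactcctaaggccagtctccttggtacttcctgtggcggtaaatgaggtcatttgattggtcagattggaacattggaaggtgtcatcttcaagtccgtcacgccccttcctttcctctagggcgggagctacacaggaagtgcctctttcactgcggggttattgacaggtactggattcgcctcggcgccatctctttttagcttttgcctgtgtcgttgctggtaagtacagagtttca

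The presence of the NRF1 letters was set beside the calls described below, without a test. Over the EpiLC course 6 of the 19 members with the letters and 21 of the 49 without them were called lower. In the KO comparison 10 of the 19 and 28 of the 49 were called lower. On return to 2i/LIF 3 of the 19 and 6 of the 49 were called higher. The median log2 change over the EpiLC course was -0.25 with the letters and -0.43 without them.

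The transition from 2i/LIF to EpiLCs without Dox was examined first. As ESCs left 2i/LIF, a smaller share of the members than of all genes was called, and nearly all called members were lower. Complex IV had the largest share of its members lower. Of the 82 members, 31 were called lower and 2 higher, while 49 were not called (35 lower and 2 higher at an unadjusted p under 0.05). Among the members 40.2% were thus called, 37.8% lower and 2.44% higher. Over all genes 50.1% were called, 25.4% higher and 24.8% lower. The share of members called was below the background, while the share called lower was above it. The median fitted change from 0 to 96 h was -0.41 on the log2 scale in the members and -0.02 over all genes. Without the 0 h library the members' median was -0.20. Calls came from limma, a spline over the 10 hours with Benjamini-Hochberg adjustment over all genes at 0.05, where the spread around a smooth course stands in for replicate spread. Of the 33 called members, 25 ended lower and 1 higher by at least 2 SE of the fitted end difference. The remaining 7 (Cox7a2l, Sdhb, Cox7c, Uqcrq, Ndufa8, Atp5s and Ndufa4l2) were called for a course whose ends differed by less than that.

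Summed over the 82 members, their share of each library's total was 1.07% at 0 h, 0.925% at 6 h, 0.957% at 48 h, 0.826% at 72 h and 0.817% at 96 h. The decline came in steps: 68 of 82 members were below their 0 h value at 6 h, 50 at 24 h and 69 at 96 h. The members' median log2 ratio to 0 h was -0.20 at 6 h, -0.11 at 24 h, -0.41 at 72 h and -0.365 at 96 h. For complex IV alone it was -0.61 at 72 h and -0.81 at 96 h. Of the members 30 (36.6%) had their highest value at 0 h and 52 (63.4%) their lowest at 72 or 96 h, against 22.2% and 26.6% of all genes. Cytosolic ribosomal protein genes had a median log2 ratio to 0 h of -0.32 at 6 h and -0.33 at 96 h, so they were already low at the first hour sampled.

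**Figure D1:**
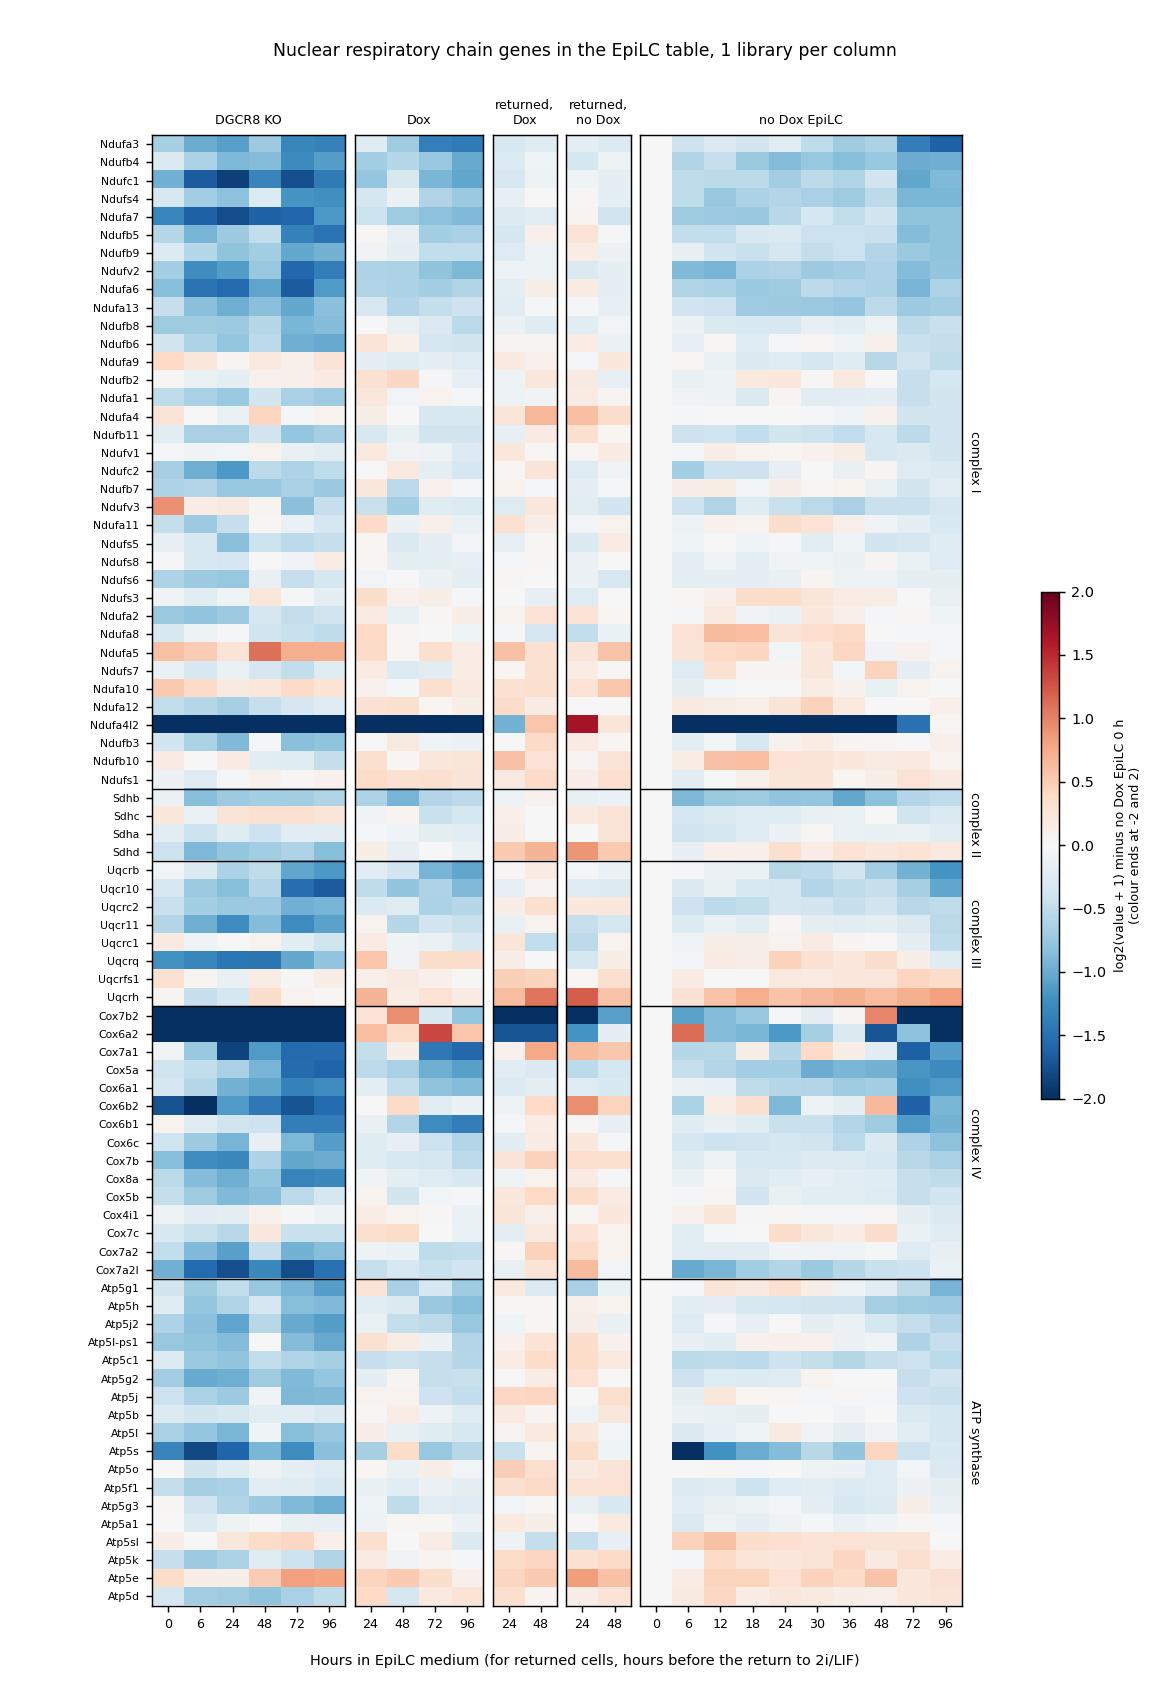
Each row is 1 of 81 members and each column 1 library of the EpiLC table, with rows grouped by complex and columns by KO, Dox, returned cells and no Dox. Colour gives log2(value + 1) minus the value without Dox at 0 h, and blue, the lower side, prevails in KO libraries and at 72 and 96 h.

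The heat map of members shows how far the genes moved together. Blue is spread through most rows of the KO block, and in the block without Dox it deepens at 72 and 96 h. The returned cells are mixed around the level at 0 h.

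In complex I, 12 of 37 members were called lower and 1 higher, and the core subunit Ndufv2 was among those lower (log2 change -0.81 ± 0.22 (SE), limma adjusted p = 0.0298). Ndufa3, an accessory subunit, had 157, 118, 134, 101, 60 and 50.6 units at 0, 6, 24, 48, 72 and 96 h. Its fitted end difference was the largest of complex I (log2 change -1.64 ± 0.26 (SE), limma adjusted p = 0.000997). Ndufb4, another accessory subunit, had 383, 251, 208, 226, 192 and 193 units at the same hours (log2 change -0.99 ± 0.20 (SE), limma adjusted p = 0.00672). Most of the fall of Ndufb4 lay before 24 h, and it was not called without the 0 h library. Ndufc1, a small membrane subunit, had 162, 113, 100, 124, 78.5 and 87.7 units (log2 change -0.98 ± 0.26 (SE), limma adjusted p = 0.0451) and lost its call in 14 of 20 other settings. In complex II, Sdhb, the iron-sulphur subunit, was called (log2 change -0.42 ± 0.21 (SE), limma adjusted p = 0.0167) with values of 802, 432, 480.2, 492, 464, 466, 396, 453, 533 and 564 units at all 10 hours, so it was highest at 0 h and lowest at 36 h. Sdha, the flavoprotein, and Sdhc and Sdhd, the membrane anchors, were not called (log2 changes -0.20, -0.36 and 0.24).

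In complex III, 4 of 8 members were lower and 1 was higher. Uqcrb, a subunit close to the ubiquinone site, had 733, 714, 496, 450.4, 380 and 319 units at 0, 6, 24, 48, 72 and 96 h (log2 change -1.20 ± 0.19 (SE), limma adjusted p = 0.00056). Uqcrh, the hinge protein of the complex, had 343, 418, 512, 525, 559.5 and 604 units at these hours (log2 change 0.83 ± 0.17 (SE), limma adjusted p = 0.00651). The 2 genes moved in opposite directions: Uqcrb was lowest at 96 h, and every later library of Uqcrh lay above 0 h. The call of Uqcrh was lost without the 0 h library. In ATP synthase 5 of 18 members were called lower, among them Atp5g1 (log2 change -0.88 ± 0.19 (SE), limma adjusted p = 0.000916), which encodes the same mature ring subunit as Atp5g2 and Atp5g3. Those 2 genes were not called (log2 changes -0.48 and -0.02), nor were Atp5a1 and Atp5b of the catalytic head.

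In complex IV, 9 of 15 members were called lower, none higher, and the median log2 change was -0.81. Cox5a, an early-assembling subunit, had 2738, 1992, 1834, 1718, 1718, 1373, 1456, 1424, 1224 and 1134 units at 0, 6, 12, 18, 24, 30, 36, 48, 72 and 96 h (log2 change -1.26 ± 0.15 (SE), limma adjusted p = 0.000215). Its decline ran through the whole course, and its last 2 libraries were the lowest. Cox6a1, the common form of subunit 6a, had 1100, 1017, 744, 689, 470 and 500.4 units at 0, 6, 24, 48, 72 and 96 h (log2 change -1.23 ± 0.19 (SE), limma adjusted p = 0.000583). Cox6b1, the common form of subunit 6b, had 877, 744, 646, 534, 400 and 454 units (log2 change -1.02 ± 0.18 (SE), limma adjusted p = 0.000939). Both genes were lowest at 72 h. Cox7b2, a relative of Cox7b known from testis in humans, had 26.1, 11.9, 13.8, 15.1, 25.5, 22.9, 27.2, 52.2, 4 and 2.1 units over the 10 hours (log2 change -3.50 ± 0.69 (SE), limma adjusted p = 0.00222). It peaked at 48 h, which is 59 reads, and was at 8 reads at 72 h. Cox4i1, the common form of subunit 4, was not called (log2 change -0.29 ± 0.16 (SE), limma adjusted p = 0.106). Cox5a, Cox6a1, Cox6b1, Uqcrb and Ndufa3 were called lower in each of the 20 other settings of the EpiLC course.

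Without the 0 h library 16 members were called lower and 4 higher, and without the 12 h library 18 were called lower. Without 0 h, 5 of the 33 calls changed the sign of the fitted end difference. In edgeR's quasi-likelihood test on recovered reads over 0 to 72 h, 23 members were called lower and 1 higher.

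Ndufa4l2, which replaces Ndufa4 under low oxygen and is a known target of hypoxia-inducible factors, was called over the EpiLC course for its dip. It had 40, 0.6, 0, 4.1, 1.8, 1.8, 4.7, 6.2, 13.5 and 40.9 units at the 10 hours, and its fitted ends did not differ beyond their error (log2 change 0.03 ± 0.98 (SE), limma adjusted p = 0.00172). It was high at 0 h and again at 96 h, and it held 0 to 8 reads from 6 to 48 h. The 10 genes of a hypoxia response list, such as Egln3, summed to 3321 units at 0 h, 2474 at 6 h, 2302 at 24 h, 3982 at 72 h and 7459 at 96 h, with 7 called higher and 1 lower. Whether oxygen differed between dishes was not tested.

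Other genes of mitochondrial energy metabolism were counted over the EpiLC course as well. Of the 13 mitochondrially encoded subunits, 1 was called higher and 4 lower (median log2 change -0.26). Glycolysis genes had 8 of 14 higher and 3 lower (median 0.54), with the kinases Pfkp (-3.02 ± 0.44, limma adjusted p = 0.000117) and Hk1 (-2.02 ± 0.32, limma adjusted p = 0.000711) falling and Pfkl rising (1.68 ± 0.35, limma adjusted p = 0.000411). Tricarboxylic acid cycle genes had 3 of 13 higher and 4 lower, and mitochondrial import genes 5 of 18 higher and 1 lower. The mitochondrial ribosomal protein genes had 15 of 81 higher and 14 lower, and the cytosolic ones 36 of 88 lower and none higher by limma. Among assembly factors of the chain, 2 of 14 for complex I were higher and 2 lower, 1 of 4 for complex II was lower, 1 of 6 for complex III was higher, 2 of 20 for complex IV were higher and 1 lower, and none of 3 for ATP synthase was called. Among 12 measured regulators, 1 was called higher and 2 lower (median log2 change 0.07). The 2 lower were Esrrb, an orphan nuclear receptor of naive cells, and Gabpa, the DNA-binding part of GABP. Esrrb fell by 5.70 ± 0.39 (limma adjusted p = 4.42e-06) and Gabpa by 0.85 ± 0.18 (limma adjusted p = 0.0046).

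**Figure D2:**
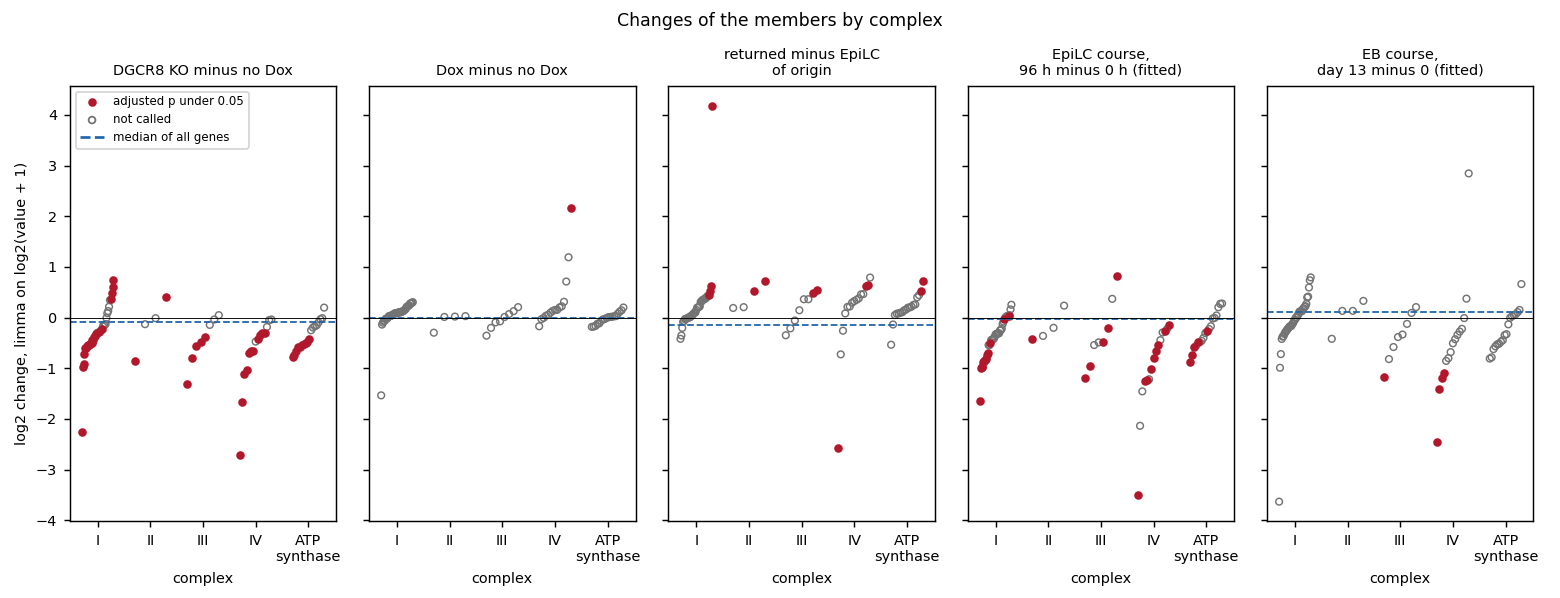
Each point is a member's log2 change in 1 of 5 comparisons, placed by complex; filled points passed limma at an adjusted p under 0.05, and the dashed line is the median of all genes. In the KO panel 46 filled points lie below 0 and 5 above, and in the return panel 12 lie above 0 and 1 below.

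The plot of changes by complex sets the comparisons side by side. The KO, Dox and course comparisons share libraries without Dox, so their panels are not independent of each other.

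The DGCR8 KO line was compared with KH2-ISY1 without Dox over 6 matched hours. More than 1 in 2 nuclear respiratory chain genes were lower in the KO line, in complexes I, III and IV and ATP synthase, while mitochondrially encoded subunits were higher. Of the 82 members, 46 were called lower and 5 higher in a limma fit with hour as a block, and 31 were not called (49 lower and 5 higher at an unadjusted p under 0.05). Over all genes 42.4% were called, 24.3% lower and 18.1% higher. The median log2 change was -0.36 in the members and -0.08 over all genes. With median-ratio scaling it was -0.27 in the members and 0.01 over all genes, with 39 members called lower and 6 higher. Without the block 32 members were called lower and 5 higher. Lower in every one of the 6 pairs were 46 members (56.1%), against 21.9% of all genes, and higher in every pair 5 (6.1%), against 15.8%. The KO range lay wholly below that without Dox in 13 members (15.9%), against 6.48% of all genes. It lay wholly above in 3 (3.66%), against 3.89% of all genes. At 0, 6, 24, 48, 72 and 96 h, 64, 70, 72, 57, 66 and 64 members lay below the library without Dox, with median differences of -0.35, -0.40, -0.49, -0.13, -0.29 and -0.29. The 48 h pair was thus the closest. By complex, 19 of 37 of complex I were lower and 4 higher, 1 of 4 of complex II was lower and 1 higher, and 5 of 8 of complex III, 11 of 15 of complex IV and 10 of 18 of ATP synthase were lower.

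Uqcrq, an accessory subunit of complex III, had 165, 154, 139, 138, 187 and 220.3 units in KO cells at 0, 6, 24, 48, 72 and 96 h, against 383, 369, 524, 489, 415 and 322 units without Dox (log2 change -1.31 ± 0.17 (SE), limma adjusted p = 0.000501). The ranges did not overlap. Cox7a2l, the supercomplex factor, had 478, 315, 273, 378, 270.3 and 329 units in KO cells, against 928, 459.5, 619, 679.6, 694 and 843 units without Dox (log2 change -1.04 ± 0.12 (SE), limma adjusted p = 0.000292). Its KO value was the lower one at each hour, although the KO value at 0 h lay above that without Dox at 6 h. Sdhd, a membrane anchor of complex II, had 926, 668, 729, 769, 811 and 688 units in KO cells, against 1241, 1112, 1554, 1430.1, 1508 and 1426 units without Dox (log2 change -0.85 ± 0.10 (SE), limma adjusted p = 0.000316), with no overlap. Ndufa7, an accessory subunit of complex I, had 189, 152, 136, 150.5, 154 and 209 units in KO cells, against 466, 284, 316, 358, 267 and 268 units without Dox (log2 change -0.96 ± 0.14 (SE), limma adjusted p = 0.000768), also with no overlap. Ndufc1 had 82.2, 50.5, 43.5, 64, 47.1 and 59.8 units in KO cells, against 162, 113, 100, 124, 78.5 and 87.7 units without Dox (log2 change -0.92 ± 0.13 (SE), limma adjusted p = 0.000766). It was lower at all 6 hours, with overlapping ranges.

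The members higher in KO cells belonged to complexes I and II. Ndufa9, an accessory subunit that binds a nucleotide, had 758, 666, 595, 656, 616 and 683 units in KO cells, against 573, 588, 478, 390.3, 436 and 402 units without Dox (log2 change 0.48 ± 0.10 (SE), limma adjusted p = 0.00467). The KO range of Ndufa9 lay wholly above that without Dox, which was no more common in the members (3.66%) than in all genes (3.89%). Ndufa10 (log2 change 0.37 ± 0.09, limma adjusted p = 0.00993), Ndufa5 (0.61 ± 0.15, limma adjusted p = 0.0093) and the anchor Sdhc (0.41 ± 0.09, limma adjusted p = 0.00656) were likewise higher at 6 of 6 hours. In complex II, Sdhc was thus higher and Sdhd lower, while Sdha (-0.13) and Sdhb (-0.01) were not called. All 3 genes of the ATP synthase ring were lower, Atp5g1 by -0.49, Atp5g2 by -0.59 and Atp5g3 by -0.50 on the log2 scale.

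**Figure D3:**
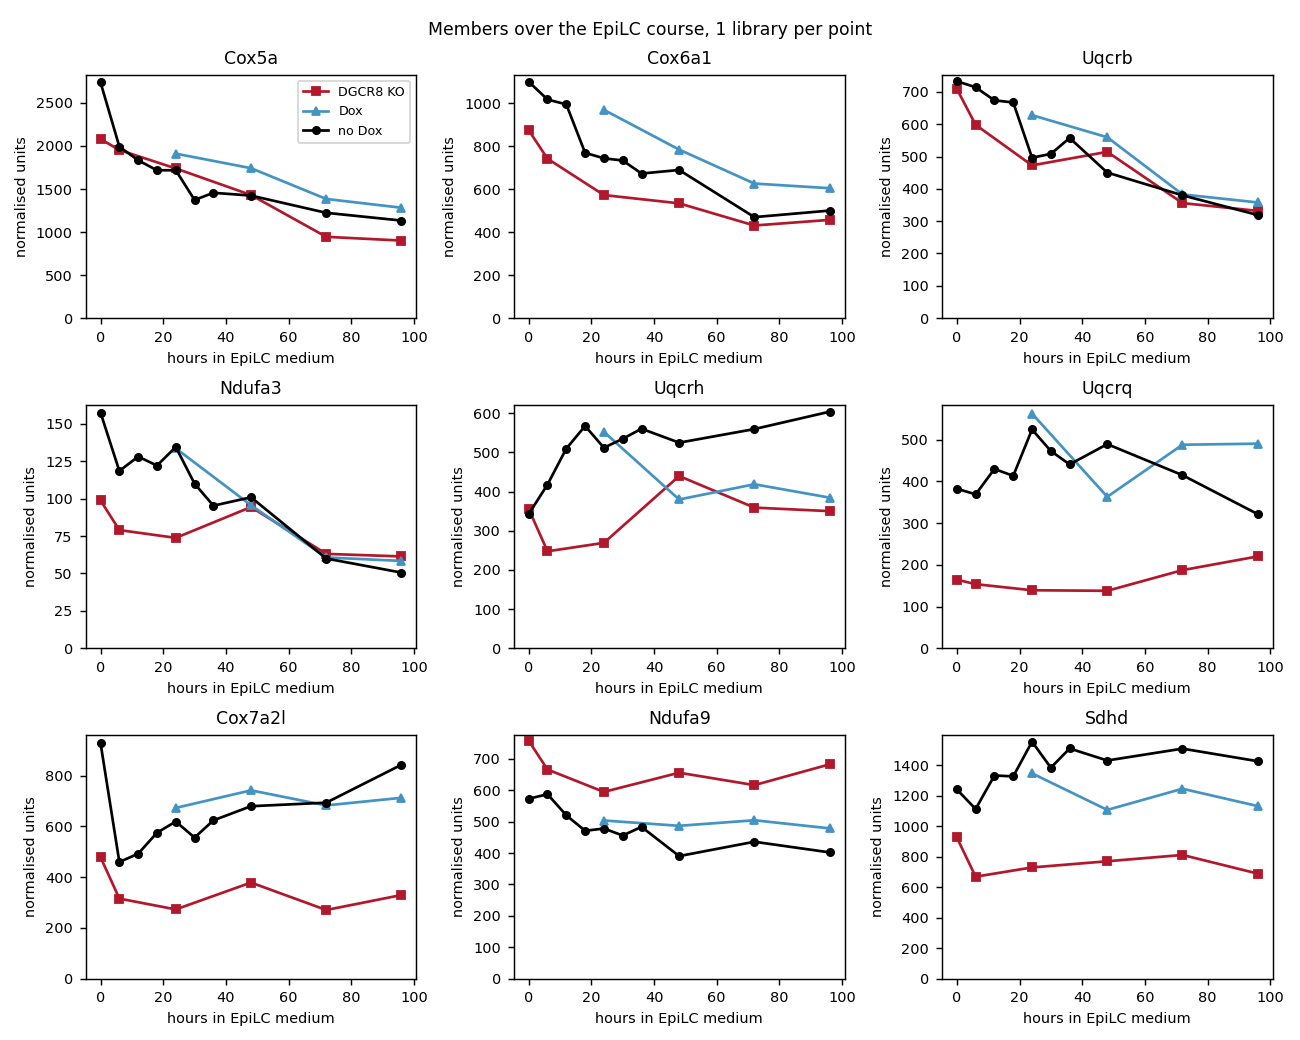
Values in normalised units (vertical axis from 0) against hours in EpiLC medium, 1 library per point, for KO (squares), Dox (triangles) and no Dox (circles) cells. Cox5a, Cox6a1, Uqcrb and Ndufa3 decline with time in all 3, whereas Uqcrq and Sdhd lie lower and Ndufa9 higher in KO cells at each hour.

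The plot of member courses by hour shows that the KO difference and the decline over time fell on different genes in part. Cox5a had 2080.3, 1953, 1739, 1430.4, 945 and 901 units in KO cells, against 2738, 1992, 1718, 1424, 1224 and 1134 units without Dox, and was not called between the lines (log2 change -0.18 ± 0.09 (SE), limma adjusted p = 0.126). Cox4i1 was not called either (log2 change -0.04 ± 0.09 (SE), limma adjusted p = 0.768), nor was Cox6b1 (log2 change -0.05 ± 0.10 (SE), limma adjusted p = 0.73).

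Among the isoforms of low level, Cox7b2 had 0.3, 1.4, 0.4, 2.3, 1.6 and 1.6 units in KO cells, against 26.1, 11.9, 25.5, 52.2, 4 and 2.1 units without Dox (log2 change -2.71 ± 0.58 (SE), limma adjusted p = 0.00566). Ndufa4l2 had 5.6, 0, 0, 0.5, 0.5 and 3.4 units in KO cells, against 40, 0.6, 1.8, 6.2, 13.5 and 40.9 units without Dox (log2 change -2.26 ± 0.39 (SE), limma adjusted p = 0.00194). Cox6a2, the heart and skeletal muscle form of subunit 6a, had 0, 0.5, 0, 0, 0.3 and 0.1 units in KO cells, against 5.2, 12.5, 1.8, 0.9, 2.5 and 0.4 units without Dox (log2 change -1.67 ± 0.43 (SE), limma adjusted p = 0.013). These 3 genes were lower in KO cells at 6 of 6 hours, but close to 0 in several libraries, where the log2(value + 1) scale understates a change. Cox6b2, the testis form of subunit 6b, had 27.8, 16.2, 43, 35, 28.2 and 31.8 units in KO cells, against 95.7, 61.3, 50.9, 150.4, 30.5 and 50.2 units without Dox (log2 change -1.11 ± 0.29 (SE), limma adjusted p = 0.0143). The common forms Cox6a1 (-0.30 ± 0.08, limma adjusted p = 0.0167), Cox7a2 (-0.66 ± 0.09, limma adjusted p = 0.000714), Cox7b (-0.66 ± 0.12, limma adjusted p = 0.00258) and Cox8a (-0.71 ± 0.08, limma adjusted p = 0.000243) were lower too. Ndufa4, the common partner of Ndufa4l2, was not called (log2 change 0.21 ± 0.10 (SE), limma adjusted p = 0.116).

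The mitochondrially encoded subunits had 10 of 13 members higher in KO cells and none lower (median log2 change 0.49). They made up 5.99, 5.64, 4.87, 4.94, 3.95 and 3.84% of the KO libraries at 0, 6, 24, 48, 72 and 96 h, against 4.10, 3.30, 3.36, 3.19, 3.34 and 3.30% without Dox. The nuclear members made up 0.881, 0.742, 0.753, 0.846, 0.740 and 0.732% in KO cells, against 1.07, 0.925, 0.947, 0.957, 0.826 and 0.817% without Dox. The sums of nuclear and of mitochondrially encoded genes thus differed in opposite directions at each hour. Other lists were lower beside the members: 76 of 88 cytosolic ribosomal protein genes (1 higher), 44 of 81 mitochondrial ribosomal protein genes (3 higher) and 13 of 18 import genes (1 higher), among them Timm9 (-1.60 ± 0.14, limma adjusted p = 9.19e-05). Their part in the members' difference was not tested. Cyct, the testis form of cytochrome c, was lower (-2.20 ± 0.23, limma adjusted p = 0.000196), as were Cyc1 and Ndufab1, subunits of complexes III and I outside the naming rule (-0.44 and -0.49). Assembly factors lower in KO cells were 5 of 14 for complex I (2 higher), 2 of 4 for complex II, 3 of 6 for complex III, such as Uqcc2 (-1.13 ± 0.13, limma adjusted p = 0.000241), 6 of 20 for complex IV (1 higher) and 1 of 3 for ATP synthase. Of the regulators, Tfam, which packages and transcribes mitochondrial DNA, was lower (-0.66 ± 0.08, limma adjusted p = 0.000469), and Tfb2m, its partner in transcription, was higher (1.26 ± 0.14, limma adjusted p = 0.000213). Glycolysis genes had 6 of 14 lower and 3 higher, and hypoxia response genes 3 of 10 lower and none higher. The cardiomyocyte markers, of which 8 of 12 were in the table, summed to 241 to 821 units in KO cells, against 72.8 to 180.5 units without Dox, with Actc1 at 0 in 3 of the KO libraries. Ttn alone had 101.4 to 802.9 units in KO cells, against 3 to 64.5 units without Dox at the same hours. It was the 1 marker called, while 6 of the 8 had a negative log2 change (median -0.59). Of the naive pluripotency genes 6 of 12 were higher in KO cells and 1 lower (median log2 change 1.12), of the formative genes 4 of 8 were lower and 1 higher, and 3 of 3 measured endothelium and blood markers were higher. The part of these lists in the members' values was not tested.

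Whether the KO difference changed along the course was tested as a slope on the square root of hour. None of the 82 members was called by limma (4 and 3 members had a positive and a negative slope at p under 0.05 before adjustment), and edgeR was not run on this test. Over all genes 0.523% were called, 0.375% higher and 0.148% lower. Atp5g3 had 902, 680.5, 584, 529.9, 478 and 452 units in KO cells, against 887, 762, 851, 736, 965 and 799 units without Dox. Its fitted KO difference changed by -0.95 ± 0.23 on the log2 scale from 0 to 96 h (limma adjusted p = 0.117). Its KO value was the higher one at 1 of the 6 hours.

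Induction of Flag-ISY1 with Dox during EpiLC differentiation was compared with no Dox over 4 matched hours. A single nuclear member passed the test, while 9 of 13 mitochondrially encoded subunits were higher with Dox. Of the 82 members, 1 was called higher and none lower by limma with hour as a block (11 and 4 when p was not adjusted). In edgeR on the recovered reads of 24 and 48 h none was called in either direction. Over all genes 2.83% were called, 1.78% higher and 1.05% lower. No gene of the table was called in either direction by limma without the block, without the intensity trend, or without the pair at 48 or 72 h, so the calls of mitochondrially encoded subunits and of the other lists with Dox were lost there as well. The median log2 change was 0.05 in the members and -0.01 over all genes. Higher with Dox in all 4 pairs were 23 members (28%), against 15.5% of all genes. By complex these were 14 of 37 of complex I (37.8%) and 6 of 15 of complex IV (40%). In complex III they were 1 of 8 (12.5%), in ATP synthase 2 of 18 (11.1%) and in complex II 0 of 4. Lower in all 4 pairs were 8 members (9.76%), against 14.5% of all genes.

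The called member was Cox6a2, with 8.4, 7, 14.6 and 8.1 units with Dox at 24, 48, 72 and 96 h, against 1.8, 0.9, 2.5 and 0.4 units without Dox (log2 change 2.17 ± 0.32 (SE), limma adjusted p = 0.0345). At these hours the ranges did not overlap, but the values are few reads: 9 and 8 with Dox at 24 and 48 h, against 2 and 1 without Dox. At hours that have no library with Dox, cells without Dox had 5.2 units (0 h) and 12.5 units (6 h, 21 reads). The value at 6 h lay within the range with Dox. The call was lost without the pair at 48, 72 or 96 h, without the block and without the intensity trend. The cardiomyocyte markers summed to 124, 53.5, 134 and 125 units with Dox, against 97.3, 72.8, 180.5 and 122.5 units without Dox. The part of heart muscle cells in Cox6a2 was not tested here.

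Members close to the threshold with Dox were not called. Sdhd had 1346, 1106, 1245 and 1131 units with Dox, against 1554, 1430.1, 1508 and 1426 units without Dox (log2 change -0.30 ± 0.07 (SE), limma adjusted p = 0.0623). Cox6a1 had 969, 784, 626 and 604 units with Dox, against 744, 689, 470 and 500.4 units without Dox (log2 change 0.31 ± 0.08 (SE), limma adjusted p = 0.0731). Sdhd was the lower one and Cox6a1 the higher one with Dox at each hour. Ndufa4l2 had 0.9, 0.9, 5.6 and 6.3 units with Dox, against 1.8, 6.2, 13.5 and 40.9 units without Dox (log2 change -1.53 ± 0.39 (SE), limma adjusted p = 0.0755). Without the 24 h pair Ndufa4l2 (log2 change -1.86, limma adjusted p = 0.0353) and Uqcrh (-0.51, limma adjusted p = 0.0391) were called lower. Cox7b2 had 31.8, 50.9, 21 and 14.9 units with Dox, against 25.5, 52.2, 4 and 2.1 units without Dox, and was not called (log2 change 1.19 ± 0.44 (SE), limma adjusted p = 0.165).

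The mitochondrially encoded subunits had a median log2 change of 0.68 with Dox, led by mt-Nd3 (1.04 ± 0.17, limma adjusted p = 0.0371), and made up 3.88, 4.59, 4.61 and 4.27% of the libraries with Dox, against 3.36, 3.19, 3.34 and 3.30% without Dox. The nuclear members made up 0.980, 0.960, 0.877 and 0.865% with Dox, against 0.947, 0.957, 0.826 and 0.817% without Dox. Of the glycolysis genes 4 of 14 were lower with Dox, such as Ldha (-0.98 ± 0.14, limma adjusted p = 0.0345), and 1 was higher. No gene of 88 cytosolic or 81 mitochondrial ribosomal protein genes was called by limma. Of the naive pluripotency genes 6 of 12 were higher with Dox, and of the formative genes 3 of 8 were lower.

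The return of EpiLCs to 2i/LIF was examined in 4 pairs of returned cells and their EpiLC of origin. More members rose than fell on return, whereas over all genes more fell than rose. Of the 82 members, 12 were called higher and 1 lower by limma with the origin as a block (24 and 3 when p was not adjusted), and 69 were not called. Over all genes 18.4% were called, 5.62% higher and 12.8% lower. The median log2 change was 0.20 in the members and -0.14 over all genes. With median-ratio scaling, which sets the median of all genes to -0.02, it was 0.33 in the members. Higher in all 4 pairs were 37 members (45.1%), against 16% of all genes, and lower in all 4 were 6 (7.32%), against 27%. Complex I had 4 members higher, and complexes II, III and IV and ATP synthase had 2 each. The members made up 1.13, 1.17, 1.20 and 1.19% of the libraries returned from Dox 24 h, Dox 48 h, no Dox 24 h and no Dox 48 h, against 0.980, 0.960, 0.947 and 0.957% of their origins.

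Sdhb had 746, 850.5, 727 and 737 units in cells returned from Dox 24 h, Dox 48 h, no Dox 24 h and no Dox 48 h, against 522, 422, 464 and 453 units in their origins (log2 change 0.72 ± 0.14 (SE), limma adjusted p = 0.0123). Sdhd had 1776, 1985, 2290 and 1781 units in returned cells, against 1346, 1106, 1554 and 1430.1 units in their origins (log2 change 0.53 ± 0.14 (SE), limma adjusted p = 0.0345). Both complex II genes were higher in 4 of 4 pairs without overlap between the groups. Atp5c1, the rotating gamma subunit of ATP synthase, had 954, 1116, 1112 and 989 units in returned cells, against 628, 637, 644 and 626 units in their origins (log2 change 0.71 ± 0.13 (SE), limma adjusted p = 0.00836). Cox7b, a small subunit of complex IV, had 1182, 1363, 1253 and 1234 units in returned cells, against 834, 793, 791 and 795 units in their origins (log2 change 0.65 ± 0.13 (SE), limma adjusted p = 0.0125). These genes, too, were higher in each pair. Cox7a2l (0.63 ± 0.17, limma adjusted p = 0.0392), the accessory subunit Ndufa6 (0.62 ± 0.14, limma adjusted p = 0.0216) and Uqcrc2, a core protein of complex III (0.54 ± 0.13, limma adjusted p = 0.0222), rose in 4 of 4 pairs. Atp5f1, Ndufb4, Uqcrb and Ndufv2 completed the 12.

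The largest change was that of Ndufa4l2, with 20.2, 59.5, 128 and 47.3 units in returned cells, against 0.9, 0.9, 1.8 and 6.2 units in their origins (log2 change 4.19 ± 0.50 (SE), limma adjusted p = 0.00151). All 4 returned libraries were above all 4 origins, and they held 23, 66, 154 and 52 reads, against 1, 1, 2 and 7. Cox7b2 went the other way, with 4.4, 5.4, 3.3 and 11.8 units in returned cells, against 31.8, 50.9, 25.5 and 52.2 units in their origins (log2 change -2.58 ± 0.31 (SE), limma adjusted p = 0.00163). It was the only member called lower by limma. The hypoxia response list summed to 2899, 4912, 5252 and 2046 units in returned cells, against 2756, 3913, 2302 and 4986 units in their origins, and 1 of its 10 genes was higher and 2 lower. The list's sum was higher in 3 of 4 pairs, Ndufa4l2 in 4 of 4.

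The origins at 24 and 48 h without Dox are also libraries of the EpiLC course, so both comparisons share them. The count called higher rested on single pairs: it was 1 without the Dox 48 h pair, 3 without Dox 24 h, 5 without no Dox 48 h and 15 without no Dox 24 h. Without the intensity trend it was 2, and it was 22 with edgeR on recovered reads and with either other scaling. Naive pluripotency genes were higher in 7 of 12 and formative genes lower in 7 of 8. The mitochondrially encoded subunits had 2 of 13 higher and 2 lower, and the cytosolic ribosomal protein genes 1 of 88 higher and 2 lower (27 and 2 when p was not adjusted). The median log2 change of these ribosomal genes was 0.28 with 77 of 88 positive, against 0.20 with 65 of 82 positive in the members, so they leaned the same way.

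Returned cells were also set beside ESCs that had never left 2i/LIF, and beside each other by Dox history, without a test because each condition has 1 library. Past 1.5-fold in all 4 returned libraries against 0 h were 11.2% of all genes, 2.16% higher and 9.04% lower, but only Cox7b2 among the members, which was lower. It had 4.4, 5.4, 3.3 and 11.8 units in the libraries returned from Dox 24 h, Dox 48 h, no Dox 24 h and no Dox 48 h, against 26.1 units at 0 h. The members' median log2 ratio to 0 h was 0.06, against -0.14 over all genes. Between cells returned from Dox and from no Dox, 3.47% of all genes passed 1.5-fold at both hours, 2.22% higher and 1.25% lower, and no member did (median log2 ratio 0.03, against 0.09 over all genes).

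**Figure D4:**
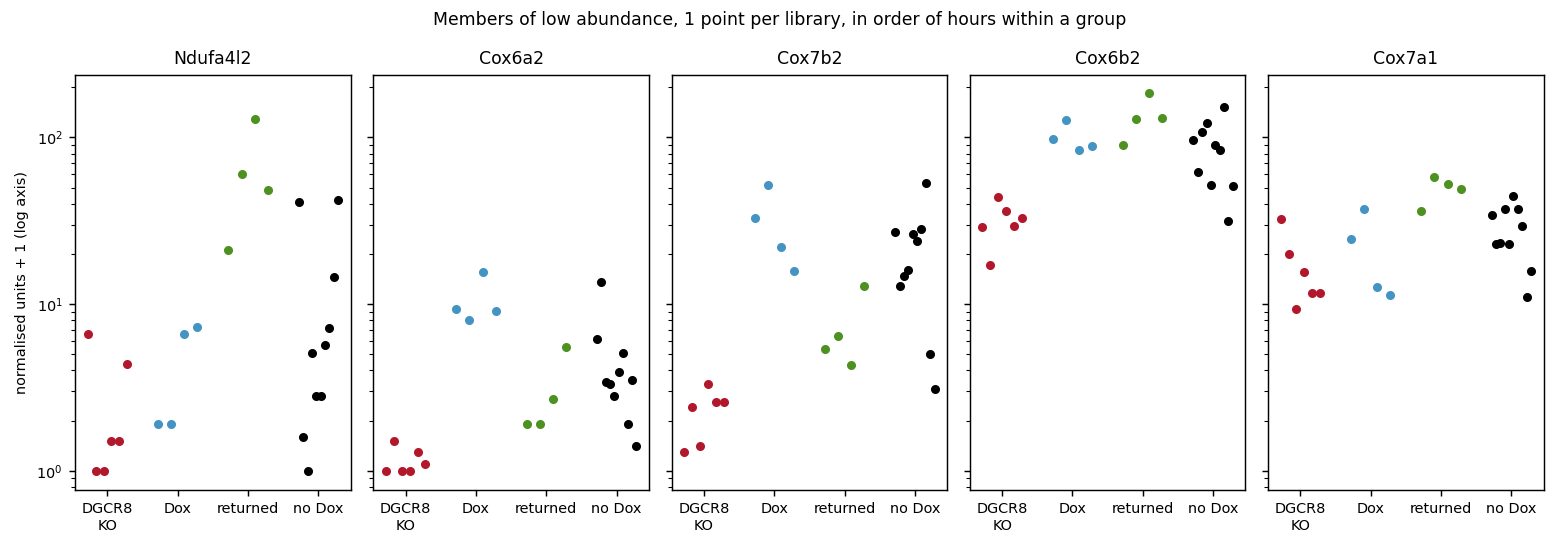
Normalised units + 1 on a log axis for 5 members of low level, 1 point per library, grouped as KO, Dox, returned (Dox origins left of no Dox origins) and no Dox cells, in order of hours. Ndufa4l2 is highest in returned cells, Cox6a2 is higher with Dox than in KO cells, and Cox7b2, Cox6b2 and Ndufa4l2 are low in KO cells.

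The plot of members of low abundance brings together genes that are known from muscle, testis or low oxygen. They vary far more than the common forms, and their lowest points stand for few or no reads. Cox7a1, the muscle form of subunit 7a, had 35.1, 56.8, 51.7 and 48.2 units in returned cells, against 23.4, 36, 21.8 and 28.3 units in their origins, and was not called (log2 change 0.79 ± 0.25 (SE), limma adjusted p = 0.0587). The marker genes of germ cells and testis had 5 of 8 in the table and summed to 94.1 to 380.3 units in KO cells and 169.8 to 1208 units without Dox over all its hours. Their part in the values of Cox7b2 and Cox6b2 was not tested.

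EB formation without Dox was examined over 7 days of sampling that start in serum/LIF. Few members changed: 5 of 82 were called lower and none higher by limma (9 lower and 2 higher at an unadjusted p under 0.05), and 4 of the 5 belonged to complex IV. Over all genes 26.9% were called, 17.3% higher and 9.61% lower. In edgeR on recovered reads 6 members were called lower and 1 higher. The median fitted change from day 0 to day 13 was -0.17 in the members and 0.12 over all genes. With median-ratio scaling it was -0.30 in the members and -0.01 over all genes. The members' median turned to 0.02 without the day 0 library and was -0.08 without day 10. The members made up 1.00, 0.861, 0.806, 0.828, 0.911, 0.740 and 0.778% of the libraries at days 0, 1, 2, 4, 8, 10 and 13. Of the members 28 (34.1%) were highest at day 0 and 41 (50%) lowest at day 10 or 13, against 15.6% and 30.4% of all genes.

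Uqcrc1, a core protein of complex III, had 816, 565, 507, 435, 405, 350 and 366 units at days 0, 1, 2, 4, 8, 10 and 13 (log2 change -1.17 ± 0.22 (SE), limma adjusted p = 0.0165). Cox8a, the common form of subunit 8, had 2458, 1686, 1479.56, 1264, 1283, 973 and 1116 units (log2 change -1.18 ± 0.23 (SE), limma adjusted p = 0.02). These 2 genes were also called lower over the EpiLC course (-0.47 ± 0.16 and -0.53 ± 0.15 on the log2 scale). There the call was lost in 10 of 20 other settings for Cox8a and in 2 for Uqcrc1. In EBs it was lost in 5 of 16 other settings for Cox8a and in 3 for Uqcrc1. Cox7a1 had 79.1, 32.1, 28, 27.5, 17.6, 9.44 and 15.6 units (log2 change -2.46 ± 0.49 (SE), limma adjusted p = 0.0224) and Cox6b2 had 68.6, 81.5, 87.8, 102, 47.1, 38.3 and 36.7 units (log2 change -1.08 ± 0.36 (SE), limma adjusted p = 0.0373). Cox4i2, the form of subunit 4 known from lung and low oxygen, had 53.9, 4.76, 4.44, 8.13, 5.29, 7.22 and 17.2 units (log2 change -1.40 ± 0.72 (SE), limma adjusted p = 0.0412). Cox4i2 was highest at day 0, with its next highest value at day 13, and its fitted ends differed by less than 2 SE. Without the day 0 library its fitted end difference was 1.23 and it was not called. Without day 10 no member was called lower by limma, without day 0, 2 or 13 only 1 was, and without day 4 or 8 there were 7. Ndufa4l2 had 659, 61.0, 113, 246, 16.5, 34.4 and 62.2 units and was not called (log2 change -3.63 ± 1.20 (SE), limma adjusted p = 0.112), while the hypoxia response list summed to 19620, 3661, 9566, 18126, 8252, 7273 and 9317 units on the same days.

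**Figure D5:**
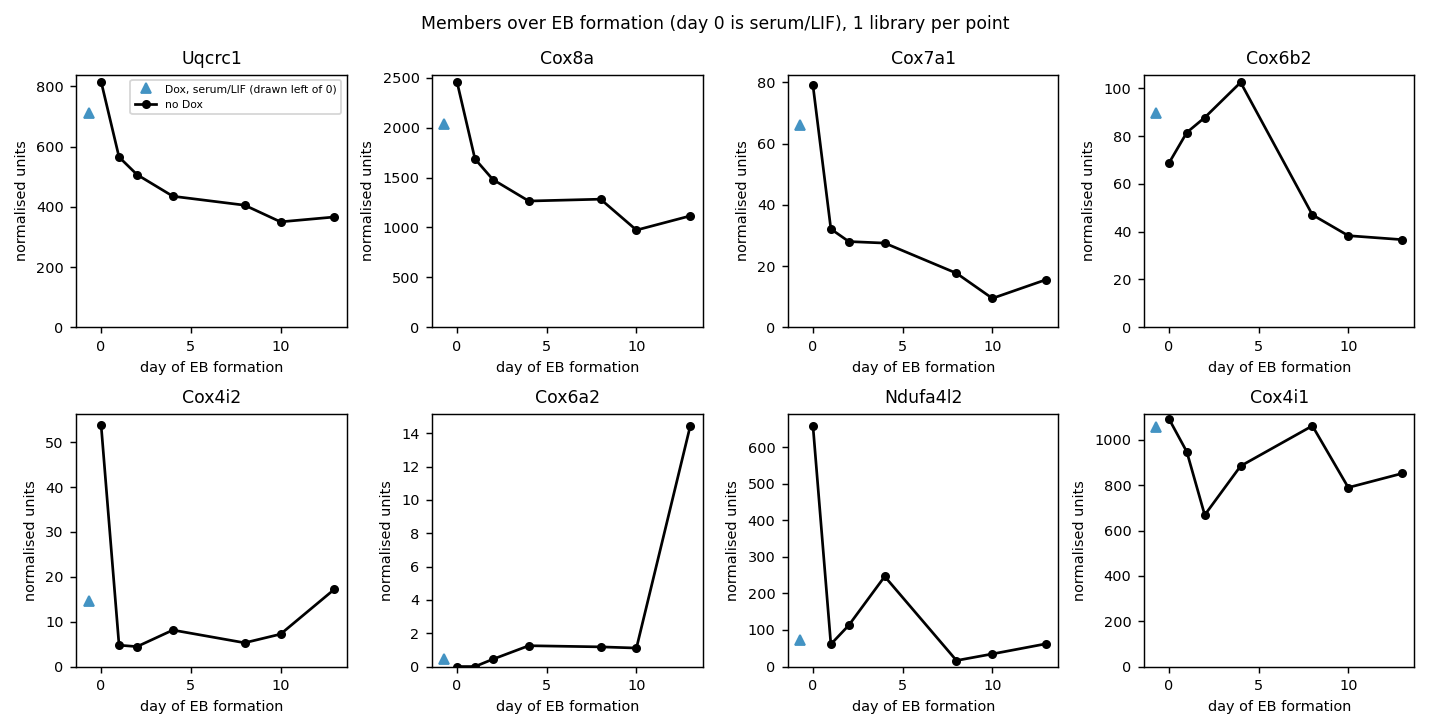
Values in normalised units (vertical axis from 0) for 8 members against the day of EB formation, 1 library per point, with the serum/LIF library with Dox as a triangle left of day 0. Uqcrc1 and Cox8a decline, Cox4i2 and Ndufa4l2 are highest at day 0 without Dox, and Cox6a2 is highest at day 13.

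The plot of members over EB formation shows Cox6a2 close to 0 before day 13. It had 0, 0, 0.44, 1.25, 1.18, 1.11 and 14.4 units, with 26 reads at day 13 and 2 or fewer in each earlier library. Limma did not call it (log2 change 2.85 ± 1.01 (SE), limma adjusted p = 0.0997), whereas edgeR did (edgeR adjusted p = 0.0254). The cardiomyocyte markers, of which 11 of 12 were in the table, summed to 102.5, 78.7, 74.9, 185, 92.9, 129 and 2573 units over the 7 days, with 3 of 11 called higher. Cox6a2 and these markers were thus both highest at day 13, but so were the sums of fibroblast markers (12581 units), primitive and visceral endoderm markers (6123) and endothelium and blood markers (891). Skeletal muscle markers, of which 3 of 7 were in the table, summed to 120.5 units at day 13, against 293.4 at day 0 and 334 at day 1. Smooth muscle and pericyte markers summed to 4626 units at day 4 and 2699 at day 13. The part of any of these cells in Cox6a2 was not tested. Cox4i1 was not called (log2 change -0.22 ± 0.30 (SE), limma adjusted p = 0.653). Of the other lists, none of the 13 mitochondrially encoded subunits was called by limma, the regulators had 2 of 14 higher and 4 lower, cytosolic ribosomal protein genes 7 of 88 lower, and mitochondrial ribosomal protein genes 5 of 81 lower. Among the regulators Ppargc1a, a coactivator of mitochondrial genes, rose (5.36 ± 0.72, limma adjusted p = 0.00423) and Esrrb fell (-6.91 ± 1.22, limma adjusted p = 0.0143).

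Dox in serum/LIF gives 1 library on each side and no test. Past 1.5-fold were 22.7% of all genes, 5.52% higher and 17.1% lower, and among the 81 members with a mean of at least 1 (all but Cox6a2) 3 lower and none higher. Ndufa4l2 had 71.9 units with Dox, against 658.6 units without Dox. Cox4i2 had 14.5 units with Dox, against 53.9 units without Dox, and Ndufv3, a small complex I subunit, had 158.6 units with Dox, against 259.6 units without Dox. The first 2 of these are the members known for low oxygen, and the hypoxia response list summed to 6133 units with Dox, against 19620 units without Dox, with its gene Egln3 at 291 units with Dox, against 1643 units without Dox. Whether oxygen differed between the dishes was not tested. The members' median log2 ratio was -0.05, against -0.04 over all genes.

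Over the 6 tested comparisons 19 members were called in none at the main settings. They included Atp5a1, Atp5b, Atp5e and Atp5o of ATP synthase, the complex I core subunits Ndufs1, Ndufs3, Ndufs7, Ndufs8 and Ndufv1, the flavoprotein Sdha, the Rieske protein Uqcrfs1, Cox4i1 and Ndufa4. Cox4i1 ranged from 867 to 1082 units in the 6 KO libraries (median 952) and from 834.9 to 1210 units over the 10 libraries without Dox (median 1014). Sdha ranged from 1634 to 1888 units in KO cells (median 1857) and from 1667 to 2219 units without Dox (median 1989). These ranges overlapped, and that a gene was not called does not show that it did not differ. Some of the named members were called in other settings. With median-ratio scaling Atp5b was lower in EBs (log2 change -0.94, limma adjusted p = 0.0347). With that scaling Atp5o (0.53, limma adjusted p = 0.027) and Ndufa4 (0.535, limma adjusted p = 0.0469) were higher on return. Ndufa4 was also higher in KO cells with it (0.31, limma adjusted p = 0.03035). The share of all genes called in none of the 6 comparisons was not counted, so the 19 members have no background beside them.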

How the data were processed

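PolyA RNA was sequenced in 32 libraries after TruSeq stranded preparation, per the labels' protocols; 10 small RNA libraries were not used. Bowtie (version not given) and the builds GRCm38 and mm9 are named in the submitters' processing notes without roles; the counter, annotation, use of strand and normalisation are not given in the sources used here. The deposited values are signal: read counts that the authors divided by 1 size factor per library. That was worked out from the numbers: in 24 libraries at least 93.8% of values lay within 0.1 reads of a whole number, and in 8 whole reads were not recovered. The 8 were KO at 0, 6, 24, 72 and 96 h, Dox at 72 and 96 h, and no Dox at 96 h. Recovery thus differed between the sides of the KO comparison, and the KO library at 48 h, in the closest pair, was recovered. Whether this bears on the KO or 96 h values was not tested. Fold changes are on the log2(value + 1) scale, which understates low genes. Values are not per length, so genes are not compared with each other, and processed pseudogenes could take reads of these short genes.

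Genes with a mean of at least 1 were fitted with limma 3.58.1 (intensity trend) in R 4.3.3: natural splines of the square root of time (3 df EpiLC, 2 df EB), and pairs blocked by hour or origin, with 6 (EpiLC), 4 (EB), 3 (Dox), 5 (KO), 4 (KO with hour) and 3 (return) residual degrees of freedom. The Benjamini-Hochberg method ran over all genes. With 1 library per condition, p-values measure spread over hours or around a curve. Recovered reads were tested with edgeR 4.0.16 where all libraries of a fit had them. Tables were drawn with Python 3.11.15, pandas 2.3.3 and matplotlib 3.10.9. The members, lists and tests were chosen with earlier results of these data known. In each comparison up to 8 called members of largest change in each direction are named, plus the paired isoforms, complex II and up to 3 genes of a list. The EpiLC table has 1 line without a name (at most 0.00589% of a library), left out. 1 member enters every count but is not reported here by name. The fits were tested on simulated data.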

Additional observations from a re-analysis of the deposited data

Results flagged for a closer look

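In 4 members both pairs with Dox history moved one way on return to 2i/LIF and both pairs without it moved the other way. The mean log2 difference of returned minus EpiLC of origin, Dox pairs minus no Dox pairs, was 0.35 for Atp5g3, -0.34 for Ndufa1, -0.19 for Ndufb8 and 0.16 for Ndufc2. The difference was not tested. How many of all genes show this pattern was not counted, so the count of 4 members has no background beside it. Some single pairs lay close to no change, such as Ndufa1 from Dox 48 h (-0.01) and Ndufc2 from Dox 24 h (0.04).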

How the results depend on the processing

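The KO counts stayed within 1.5 times of the reported ones in all settings. Over the EpiLC course 1 member was higher with pseudocount 0.1, pseudocount 10 or edgeR over 0 to 72 h, and 20 were lower without the intensity trend; leaving out 1 hour gave 1 to 4 higher and 16 to 30 lower. Ndufa4l2 stayed called in all 20 settings there, but its end difference turned negative in 9 (-0.01 to -1.53), and without 0 h Cox7a2l (0.87) and Atp5s (1.68) turned positive. With Dox, 0 members were higher at a mean of at least 10, without the trend, without the block and with edgeR at 24 and 48 h; leaving out 1 hour gave 0 to 1 higher and 0 to 2 lower. On return 22 were higher with median-ratio scaling, TMM scaling and edgeR, 2 without the trend and 21 without the block, where 2 were lower; leaving out 1 pair gave 1 to 15 higher. In EBs 1 was higher with edgeR, and without day 13 Cox6a2 fell under the filter; leaving out 1 day gave 0 to 1 higher and 0 to 7 lower. With median-ratio scaling 1 member was lower by Dox history and 2 were higher against 0 h. The causes were not tested. No paired analysis was possible by replicate number because the labels give none that groups share; the pairs of the blocked fits are matched hours, or returned cells and their origin. edgeR was not run for the whole EpiLC course, the 4 hours of Dox, the KO or its change with hour, since 8 libraries lack recovered reads; its shorter fits and the fit without 30 and 36 h were chosen after seeing the data. Depth limits Cox6a2, Cox7b2 and Ndufa4l2, which hold few reads.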
